A study of Mus musculus with 9 samples.

Results

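Nuclear genes of oxidative phosphorylation were compared between control NPK mouse prostate cancer cells, the same cells with Nsd2 silenced (shNsd2) and the same cells given a compound whose label starts with MCTP. The members were the genes listed as protein_coding whose symbol starts with Nduf, Uqcr, Atp5 or one of Cox4 to Cox8, or is Sdha, Sdhb, Sdhc or Sdhd. The rule used names and no measured value, but earlier results of these data were known when it was chosen. It took 83 of 12842 genes, of which 12146 were listed as protein_coding. By role they were 36 subunits of complex I, 4 assembly factors of complex I, 4 subunits of complex II, 8 of complex III, 13 of complex IV and 15 of complex V, the ATP synthase, with 3 others caught by name. Other isoforms that the names would cover, Cox4i2, Cox6a2, Cox6b2, Cox7b2, Cox8b, Cox8c and Ndufa4l2, were not analysed here.

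Oxidative phosphorylation takes electrons from NADH at complex I and from succinate at complex II, passes them through ubiquinone to complex III and through cytochrome c to complex IV, and uses the proton gradient built by complexes I, III and IV to make ATP at complex V. Most subunits are encoded in the nucleus and imported, while the mitochondrial genome encodes a small set at the core of complexes I, III, IV and V. In many cells the transcription factors NRF1 and GABP bind promoters of the nuclear subunits, and coactivators such as PGC-1 alpha (Ppargc1a) raise their transcription.

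NPK cells are a cultured line from lung metastases of mice that carry an inducible Cre and a YFP reporter of recombination. All 9 libraries came from these cells and so share their alleles, and each of the 3 groups had 3 libraries of RNA selected for poly(A). Silencing used a lentiviral short hairpin RNA whose clone the labels do not name, and the labels do not say what the control cells were given. The study describes MCTP-39 as a putative inhibitor of NSD2, a histone H3 lysine methyltransferase, and its discussion draws no direct conclusion on the target. Its dose and time in these libraries were not given in the sources used here. In their titles, MCTP libraries 1, 2 and 3 bear the numbers 39, 40 and 41, 1 library for each number, so no difference between these numbers could be tested. The titles of the shNsd2 libraries all name Nsd2, while their source names give Nsd2, Nsd3 and Nsd4 in turn, 1 library for each, so they may not be 3 replicates of the same silencing, and no difference between these names could be tested. The labels also do not say that the libraries of a group were separate cultures, and p-values here measure the spread between libraries, which may be technical. All values are on a log2 scale as normalized by the authors, whose methods name a variance stabilization for cells sorted from tumors and metastases. Read depth is unknown because no counts were used.

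The labelled cell type was checked against marker genes. Of 9 epithelial markers 8 were in the table, with Krt8 highest at 16.21, 16.35 and 16.28 in the control libraries. Epcam lay at 3.55, 3.54 and 3.55 in those libraries, beside a filter on low values of 3.78, and Krt5 was not among the genes analysed here. Among markers of prostate luminal cells Hoxb13 and Tmprss2 were in the table, and Pbsn and Msmb were not analysed here. All 4 mesenchymal markers were present, with Vim highest. For other cell types 1 of 6 leukocyte markers was in the table (Cd68), 1 of 3 endothelial markers (Cdh5), 3 of 5 fibroblast markers, with Col1a1 highest, 1 of 4 muscle markers (Acta1) and 0 of 2 erythroid markers. The endothelial gene Cdh5 was at 3.49, 3.48 and 3.52 in the control libraries, 3.69, 3.66 and 3.71 with shNsd2 and 3.53, 3.47 and 3.51 with MCTP. These values lie below the filter, and Cdh5 was not tested. Acta1 was at 4.68 in each control library and at 5.77, 5.56 and 5.98 in the MCTP libraries. Epithelial markers moved in both directions. Krt14 rose by 0.78 with shNsd2 (limma adjusted p = 2.22e-05) and by 1.19 with MCTP (0.000274), and Cdh1 fell by 0.20 (0.00368) and by 0.34 (0.00325). Cldn4 fell by 0.39 with shNsd2 (0.000238) and rose by 0.33 with MCTP (0.0116), and Krt19 fell by 0.34 (0.00257) and rose by 0.37 (0.0392). All 4 mesenchymal markers were lower with shNsd2, Fn1 by -0.42 (9.41e-05), Zeb1 by -0.28 (0.000804), Vim by -0.16 (0.0375) and Cdh2 by -0.10 (0.0332), while with MCTP Vim rose by 0.32 (0.0266) and Zeb1 fell by 0.23 (0.0407). The leukocyte marker Cd68 rose by 0.23 with shNsd2 (0.00227) and by 0.73 with MCTP (0.000688). Of the fibroblast markers, Col1a1 fell by 0.30 with shNsd2 (limma adjusted p = 0.00111) and by 0.33 with MCTP (0.0105). Pdgfra rose by 0.13 with shNsd2 (limma adjusted p = 0.00161) and was not called with MCTP. The part of these markers in the results was not tested.

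In each group 1 library stood apart from the others. Control 1, shNsd2 3 and MCTP 2 deviated from their group means in the same direction, with correlations across genes of 0.80 between MCTP 2 and control 1, 0.64 between shNsd2 3 and control 1, and 0.84 between shNsd2 3 and MCTP 2. Genes are not independent replicates, and these values are descriptive. In these 3 libraries the deviations ran against the GC content of the transcript, with Spearman coefficients over 12513 genes of -0.606 for control 1, -0.667 for shNsd2 3 and -0.726 for MCTP 2. In the other 6 libraries the coefficients were 0.375 and 0.562 for control 2 and 3, 0.470 and 0.543 for shNsd2 1 and 2, and 0.441 and 0.705 for MCTP 1 and 3. The members moved with this pattern: within its own group control 1 had the lowest value for 52 of 83 members, shNsd2 3 for 68 and MCTP 2 for 71. The median member lay 0.14 above the control mean in MCTP 1, 0.25 above it in MCTP 3 and -0.00 from it in MCTP 2. The corresponding medians were 0.11, 0.05 and 0.01 in shNsd2 1, 2 and 3. The part of this pattern in the results was not tested. Counts of the comparisons with control are given below with these 3 libraries and also for 2 libraries against 2, without them. That choice was made after seeing the data. Leaving out libraries picked for their deviation tends to narrow the spread within groups, so higher counts for 2 against 2 are no separate evidence. MCTP 2 is also the only library whose label carries the number 40, so this pattern and that label cannot be told apart in the MCTP group. Likewise shNsd2 3 is the only library whose source name gives Nsd4, so the pattern and that name cannot be told apart in the shNsd2 group.

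**Figure D1:**
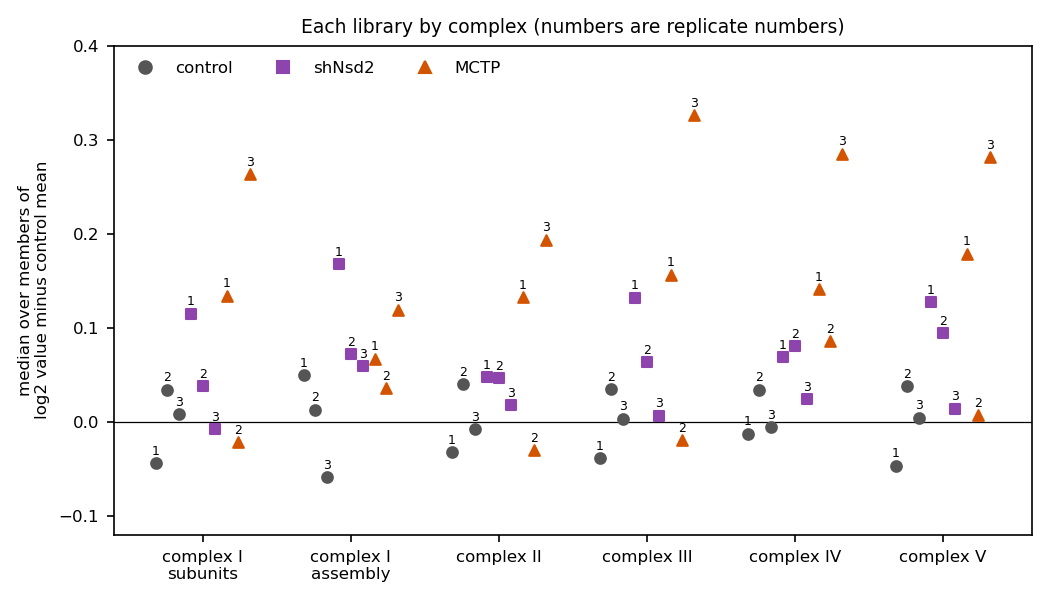
Median log2 value of the members of each complex minus the control mean in each of the 9 libraries. MCTP 3 lies highest for complexes II to V and for the subunits of complex I, while MCTP 2 lies lowest of the MCTP libraries in each group of members.

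Nsd2, listed as Whsc1 (ENSMUSG00000057406.8), was measured first as a check on the labels. Its log2 values were 12.48, 12.43 and 12.42 in the control libraries, 11.56, 11.61 and 11.68 with shNsd2 and 12.15, 12.21 and 12.07 with MCTP. The 3 groups did not overlap, and shNsd2 was lowest in each of its libraries. With shNsd2 it fell by 0.83 (SE 0.04, n = 3 against 3, limma adjusted p = 2.26e-06), to 56.3% of the control level. With MCTP it fell by 0.30 (SE 0.05, limma adjusted p = 0.00562), to 81.2%. The direct difference, shNsd2 minus MCTP, was -0.53 (limma adjusted p = 0.000424). A two-sided exact permutation test gave p = 0.1 for each comparison, the smallest value that 3 against 3 libraries allow.

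With shNsd2, most members that passed the test were higher, in a share near that of all genes, and few were lower. Of 82 members tested 21 were higher than in control cells (25.6%) and 3 were lower (3.66%), where among all 12205 genes tested 23.1% were higher and 24.8% were lower (limma, adjusted p under 0.05). Cox7a1 did not pass the filter on low values. The median difference of the members was 0.05, against 0.00 for all genes, and 61 of 82 members lay above 0. The count of higher members was near the background, and the count of lower members was below it. Without shNsd2 1 the count of higher members was 8 and without shNsd2 2 it was 10, with 17.2% and 16.7% of all genes higher in those fits, while without control 3 the count of lower members was 5, with 22.2% of all genes lower. Of the 21 calls 8 held with each library left out in turn, those of Ndufa6, Sdhb, Uqcr10, Uqcrq, Cox5a, Cox5b, Atp5g1 and Cox4nb, and so did all 3 calls of lower members, Ndufv3, Ndufaf3 and Uqcrb. With all 9 libraries in a shared fit, 4 members were called higher, beside 16.5% of all genes. Without control 1 and shNsd2 3, 39 members were higher and 5 lower, where 30% of all genes were higher and 30.8% lower, and the median was 0.07.

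With MCTP, too, more members passed the test upward than downward. Of 83 members 15 were higher (18.1%) and 1 was lower (1.20%), beside 18% of all 12216 genes tested that were higher and 17.2% that were lower. The median difference was 0.13, against -0.01 for all genes, and 69 of 83 members lay above 0. The count of higher members moved with single libraries: it was 2 without control 1, 3 without control 2, 2 without control 3, 2 without MCTP 1, 5 without MCTP 3 and 54 without MCTP 2. The share of all genes called higher moved as well, to 10.6%, 9.95%, 10.8%, 9.19%, 12.8% and 29.8% in the same fits. The call of the lower member, Ndufs1, was lost without control 1 (limma adjusted p = 0.138), and also without control 2, control 3, MCTP 1 or MCTP 3. Of the 15 calls of higher members 2 held with each library left out in turn, those of Ndufa11 and Cox7a1, and Cox7a1 passed the filter through the MCTP libraries alone, so its call could only be a rise. With all 9 libraries in a shared fit, 25 members were called higher, beside 23.3% of all genes. Without control 1 and MCTP 2, 54 members were higher and 4 lower, where 30.3% of all genes were higher and 31.7% lower, and the median was 0.18.

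Both comparisons use the same control libraries, so their calls are given side by side and not as separate evidence. Members called higher in both numbered 8: Ndufa11, Ndufa13, Ndufb2, Sdhb, Uqcr11, Uqcrq, Cox4i1 and Atp5l. A further 13 were called higher with shNsd2 and not with MCTP, 6 tested in both were called higher with MCTP and not with shNsd2, 0 were called in opposite directions and 51 were called in neither. The rest were the 3 called lower with shNsd2, the 1 called lower with MCTP, and Cox7a1, called higher with MCTP and not tested with shNsd2. A call in 1 comparison alone does not show that the comparisons differ. The direct comparison of shNsd2 with MCTP called 2 members higher in shNsd2 (2.41%) and 8 lower (9.64%, with Cox7a1, whose filter fixed its direction), beside 20.6% and 22.6% of 12217 genes. The median member was at -0.07, against 0.01 for all genes. Leaving out MCTP 2 raised the count of lower members to 40, while it was 5 without shNsd2 1, 3 without shNsd2 2, 1 without shNsd2 3 and 2 without MCTP 1. In these fits 32.1%, 16.4%, 15.9%, 16.4% and 15.9% of all genes were lower. The count of higher members was 7 without MCTP 2, with 31.6% of all genes higher, 0 without shNsd2 1, shNsd2 2 or MCTP 1 (12.8%, 12.2% and 11.9%), and 1 without shNsd2 3 or MCTP 3 (11.6% and 17.4%). Without shNsd2 3 and MCTP 2, 7 members were higher and 37 lower, where 31% of all genes were higher and 31.5% lower, and the median was -0.10.

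**Figure D2:**
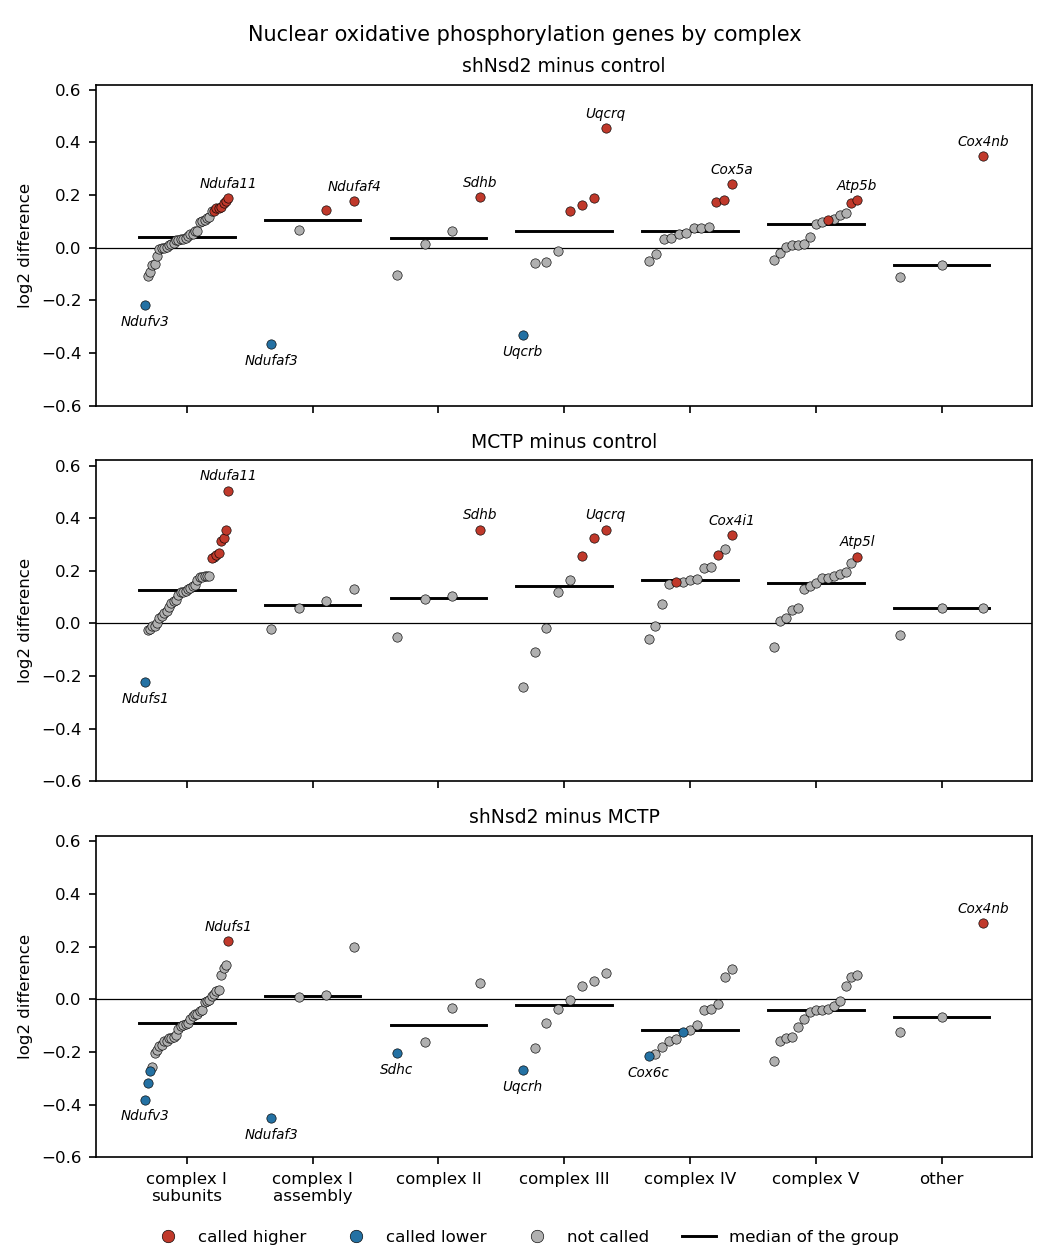
Log2 difference of each member in the 3 comparisons, shNsd2 minus control, MCTP minus control and shNsd2 minus MCTP, with members grouped by complex. Each point is 1 gene, the bars are group medians and the colors give the limma call, and the highest called point with shNsd2 is Uqcrq at 0.45 while the highest with MCTP is Ndufa11 at 0.50.

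Complex I, the NADH dehydrogenase, had 7 subunits higher and 1 lower of 36 in each comparison with control, with medians of 0.04 for shNsd2 and 0.13 for MCTP. These are 19.4% higher and 2.78% lower, beside 23.1% and 24.8% of all genes with shNsd2 and 18% and 17.2% with MCTP. For 2 libraries against 2 the counts were 14 and 1 with shNsd2 and 23 and 1 with MCTP, and the shares of all genes, which apply to each 2 against 2 count below, were 30% and 30.8%, and 30.3% and 31.7%. Ndufa11, an accessory subunit of the membrane arm, had values of 9.87, 9.99 and 9.999 in the control libraries, 10.19, 10.15 and 10.08 with shNsd2 and 10.49, 10.27 and 10.61 with MCTP. The groups did not overlap in any of the 3 comparisons, and MCTP libraries were highest. It rose by 0.19 with shNsd2 (SE 0.05, limma adjusted p = 0.0118) and by 0.50 with MCTP (SE 0.09, limma adjusted p = 0.00569), and its direct difference was -0.32 (limma adjusted p = 0.0236). The shNsd2 call was lost without shNsd2 1 (limma adjusted p = 0.0539), and the direct call without MCTP 1 (0.0904) or any 1 of the shNsd2 libraries.

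Ndufa6, another accessory subunit, had values of 9.90, 9.83 and 9.84 in the control libraries, 10.03, 10.02 and 10.05 with shNsd2 and 9.85, 9.92 and 9.94 with MCTP. All shNsd2 libraries lay above all others, and MCTP overlapped control. The rise with shNsd2 was 0.18 (SE 0.04, limma adjusted p = 0.00505) and held with each library left out. Ndufb9 had values of 10.98, 11.06 and 11.04 in the control libraries, 11.18, 11.11 and 11.09 with shNsd2 and 11.39, 11.19 and 11.57 with MCTP. Each MCTP library lay above each library of the other groups. Its rise with MCTP was 0.36 (SE 0.09, limma adjusted p = 0.0215), a call lost without MCTP 1 (limma adjusted p = 0.0823) or any 1 of the control libraries. The other accessory subunits called higher with MCTP were Ndufa13, Ndufa3, Ndufb2, Ndufb4 and Ndufb6, at 0.25 to 0.32, and each of these calls was lost without MCTP 1 and without 4 other libraries, with a highest limma adjusted p between 0.117 and 0.140.

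Among the core subunits, which carry the flavin and the iron-sulfur clusters, Ndufs7 rose by 0.15 with shNsd2 (SE 0.06, limma adjusted p = 0.0471), a call lost without shNsd2 1 (0.154), shNsd2 2, control 1 or control 3. Ndufs1, the largest core subunit, had values of 11.23, 11.16 and 11.12 in the control libraries, 11.12, 11.12 and 11.27 with shNsd2 and 10.93, 11.08 and 10.84 with MCTP. MCTP libraries lay below all others, and shNsd2 overlapped control. It fell by 0.22 with MCTP (SE 0.07, limma adjusted p = 0.0419), and its direct difference was 0.22 (SE 0.07, limma adjusted p = 0.0440). Both calls depended on single libraries, with an adjusted p of 0.138 without control 1 for the first and 0.153 without shNsd2 3 for the second. Ndufs3, Ndufs8, Ndufv1 and Ndufv2 were called in no comparison.

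Ndufv3, an accessory subunit of the NADH-binding module, was the only subunit of complex I called lower with shNsd2. Its values were 10.94, 11.07 and 11.06 in the control libraries, 10.87, 10.82 and 10.74 with shNsd2 and 11.22, 10.99 and 11.36 with MCTP. The shNsd2 libraries lay below all others, and MCTP overlapped control. It fell by 0.22 with shNsd2 (SE 0.05, limma adjusted p = 0.00695), and the call held with each library left out. With MCTP the difference was 0.16 (SE 0.10, limma adjusted p = 0.203), and the direct difference was -0.38 (SE 0.09, limma adjusted p = 0.0148). The direct call was lost without MCTP 1 (limma adjusted p = 0.0648) or shNsd2 3.

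The 4 assembly factors of complex I, which help to build it and are absent from the finished enzyme, gave 2 higher and 1 lower with shNsd2, and 0 higher and 0 lower with MCTP (limma, 0 and 0 also at an unadjusted p under 0.05), with medians of 0.11 and 0.07. Their counts for 2 libraries against 2 were 3 and 1 with shNsd2 and 1 and 0 with MCTP. The shares were 50% and 25% with shNsd2 and 0% and 0% with MCTP, beside 23.1% and 24.8%, and 18% and 17.2%, of all genes. Ndufaf3 had values of 8.18, 8.28 and 8.23 in the control libraries, 7.92, 7.87 and 7.79 with shNsd2 and 8.32, 8.18 and 8.44 with MCTP. All shNsd2 libraries lay below all others, and MCTP overlapped control. It fell by 0.37 with shNsd2 (SE 0.05, limma adjusted p = 0.000409), the lowest difference of all members in that comparison. With MCTP the difference was 0.08 (SE 0.08, limma adjusted p = 0.404). The direct difference was -0.45 (SE 0.08, limma adjusted p = 0.00310) and held with each library left out. Ndufaf1 rose by 0.14 and Ndufaf4 by 0.18 with shNsd2, calls lost without shNsd2 1 for Ndufaf1 (limma adjusted p = 0.113) and without control 2 for Ndufaf4 (limma adjusted p = 0.0957), among others.

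Complex II, succinate dehydrogenase, belongs to the TCA cycle as well, and of its 4 subunits 1 was higher in each comparison with control and 0 were lower, with medians of 0.04 for shNsd2 and 0.10 for MCTP. The share higher was 25.0% in each, beside 23.1% and 18% of all genes, and for 2 libraries against 2 the counts were 2 higher and 1 lower with shNsd2 and 3 and 0 with MCTP. The higher subunit was Sdhb, which carries the iron-sulfur clusters. Its values were 11.74, 11.86 and 11.82 in the control libraries, 12.08, 11.999 and 11.92 with shNsd2 and 12.18, 11.98 and 12.33 with MCTP. Control libraries were lowest, and shNsd2 and MCTP overlapped each other. Sdhb rose by 0.19 with shNsd2 (SE 0.05, limma adjusted p = 0.0108), a call that held with each library left out, and by 0.36 with MCTP (SE 0.09, limma adjusted p = 0.0188). The MCTP call was lost without MCTP 1 (limma adjusted p = 0.0761), control 1 or control 3. Sdhc, a membrane anchor, was lower with shNsd2 than with MCTP by a direct difference of -0.21 (SE 0.06, limma adjusted p = 0.0335), lost without shNsd2 3 (limma adjusted p = 0.117) and 4 other libraries. The flavoprotein Sdha and the anchor Sdhd were called in no comparison.

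Complex III, the cytochrome bc1 complex, had 4 of 8 subunits higher and 1 lower with shNsd2, and 3 higher and 0 lower with MCTP, with medians of 0.06 and 0.14. The shares higher were 50% and 37.5%, beside 23.1% and 18% of all genes, and for 2 libraries against 2 the counts were 4 and 2 with shNsd2 and 5 and 1 with MCTP. Uqcrq, a small subunit, had the largest rise of all members with shNsd2. Its values were 10.68, 10.87 and 10.80 in the control libraries, 11.28, 11.24 and 11.19 with shNsd2 and 11.14, 10.95 and 11.34 with MCTP. Control libraries were lowest, and shNsd2 and MCTP overlapped. It rose by 0.45 with shNsd2 (SE 0.05, limma adjusted p = 0.000178), with each library left out as well, and by 0.36 with MCTP (SE 0.10, limma adjusted p = 0.0291). The MCTP call was lost without control 1 (limma adjusted p = 0.0979) and 4 other libraries. Uqcr10 rose by 0.19 with shNsd2 (limma adjusted p = 0.00492), and with MCTP its difference was 0.12 (limma adjusted p = 0.324), not called. Uqcr11 rose by 0.14 with shNsd2 and by 0.33 with MCTP, calls lost without shNsd2 1 (limma adjusted p = 0.131) and without MCTP 1 (limma adjusted p = 0.127). The core subunit Uqcrc1 was called higher with shNsd2 at 0.16, lost without shNsd2 1 (limma adjusted p = 0.156). With MCTP its difference was also 0.16 (limma adjusted p = 0.218), not called. Uqcrc2 and the Rieske protein Uqcrfs1 were called in no comparison.

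Uqcrb, the ubiquinone-binding subunit, was lower with shNsd2. Its values were 10.78, 10.55 and 10.45 in the control libraries, 10.22, 10.23 and 10.33 with shNsd2 and 10.20, 10.60 and 10.26 with MCTP. The shNsd2 libraries lay below all control libraries, and MCTP overlapped both groups, with MCTP 2 high. It fell by 0.33 with shNsd2 (SE 0.08, limma adjusted p = 0.00760), and the call held with each library left out. With MCTP the difference was -0.24 (SE 0.12, limma adjusted p = 0.156). Uqcrh, the hinge protein, had values of 11.83, 11.81 and 11.75 in the control libraries, 11.84, 11.78 and 11.73 with shNsd2 and 12.08, 11.91 and 12.17 with MCTP. MCTP libraries were highest, and shNsd2 overlapped control. Uqcrh rose by 0.26 with MCTP (SE 0.07, limma adjusted p = 0.0271), and its direct difference was -0.27 (SE 0.07, limma adjusted p = 0.0196), calls lost without MCTP 1 (limma adjusted p = 0.102 and 0.0771), among others.

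Complex IV, cytochrome c oxidase, had 3 of 12 tested subunits higher and 0 lower with shNsd2, and 3 of 13 higher and 0 lower with MCTP, with medians of 0.06 and 0.17. The shares higher were 25.0% and 23.1%, beside 23.1% and 18% of all genes, and for 2 libraries against 2 the counts were 7 and 0 with shNsd2 and 11 and 1 with MCTP. Cox4i1, the common isoform of subunit 4, had values of 12.84, 12.99 and 12.94 in the control libraries, 13.19, 13.11 and 13.02 with shNsd2 and 13.28, 13.04 and 13.46 with MCTP. Control libraries were lowest, and the other groups overlapped each other. It rose by 0.18 with shNsd2 (SE 0.05, limma adjusted p = 0.0211) and by 0.33 with MCTP (SE 0.10, limma adjusted p = 0.0409). Both calls were lost without a single library, at an adjusted p of 0.0865 without shNsd2 1 and 0.129 without MCTP 1. Cox5a had values of 12.02, 12.15 and 12.09 in the control libraries, 12.38, 12.31 and 12.29 with shNsd2 and 12.23, 12.12 and 12.37 with MCTP. The shNsd2 libraries lay above control, and MCTP overlapped both. It rose by 0.24 with shNsd2 (SE 0.04, limma adjusted p = 0.00204), also with each library left out, and with MCTP the difference was 0.16 (SE 0.07, limma adjusted p = 0.121). Cox5b rose by 0.17 with shNsd2 (limma adjusted p = 0.00648), and with MCTP its difference was 0.21 (SE 0.07, limma adjusted p = 0.0529), not called.

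Several subunits of complex IV have isoforms for other tissues. Cox6b1, the common isoform of its kind, rose by 0.26 with MCTP (SE 0.08, limma adjusted p = 0.0337), lost without MCTP 1 (limma adjusted p = 0.107) and 4 other libraries. Cox7a1, the isoform of heart and skeletal muscle, had values of 3.68, 3.70 and 3.69 in the control libraries, 3.71, 3.77 and 3.70 with shNsd2 and 3.83, 3.80 and 3.92 with MCTP. All of these lay near the filter of 3.78, with only the MCTP libraries above it. It passed the filter through the MCTP group, so its call there (0.16, SE 0.03, limma adjusted p = 0.0107), 1 of the 3 of complex IV, could only be a rise. The direct call (-0.12, limma adjusted p = 0.0303) could for the same reason only be a fall, and it was lost without shNsd2 3 (0.101) and 3 other libraries. Cox6c had values of 11.31, 11.19 and 11.18 in the control libraries, 11.24, 11.17 and 11.11 with shNsd2 and 11.37, 11.35 and 11.46 with MCTP. MCTP libraries were highest, and shNsd2 overlapped control. Its direct difference was -0.22 (SE 0.05, limma adjusted p = 0.0158), lost without shNsd2 3 (limma adjusted p = 0.0710) or shNsd2 2. Cox6a1, Cox7a2, Cox7a2l, Cox7b, Cox8a and Ndufa4, a subunit once assigned to complex I, were called in no comparison.

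Complex V, the ATP synthase, had 3 of 15 subunits higher and 0 lower with shNsd2, and 1 higher and 0 lower with MCTP, with medians of 0.09 and 0.15. The shares higher were 20% and 6.67%, beside 23.1% and 18% of all genes, and for 2 libraries against 2 the counts were 8 and 0 with shNsd2 and 10 and 1 with MCTP. Atp5b, the catalytic beta subunit, had values of 15.48, 15.60 and 15.57 in the control libraries, 15.78, 15.73 and 15.67 with shNsd2 and 15.72, 15.51 and 15.81 with MCTP. The shNsd2 libraries lay above control, and MCTP overlapped both. It rose by 0.18 with shNsd2 (SE 0.05, limma adjusted p = 0.0141), lost without shNsd2 1 (limma adjusted p = 0.0645) or shNsd2 2. Of the 3 genes for the c subunit of the membrane ring, Atp5g1 rose by 0.17 with shNsd2 (limma adjusted p = 0.00872). With MCTP its difference was 0.19 (SE 0.09, limma adjusted p = 0.116), not called. Atp5g2 and Atp5g3 were called in no comparison. Atp5l, a subunit of the membrane part, had values of 11.77, 11.80 and 11.75 in the control libraries, 11.90, 11.89 and 11.85 with shNsd2 and 12.04, 11.93 and 12.12 with MCTP. The 3 groups did not overlap, with control lowest and MCTP highest. Atp5l rose by 0.11 with shNsd2 (limma adjusted p = 0.0251) and by 0.25 with MCTP (SE 0.06, limma adjusted p = 0.0157). These calls were lost without shNsd2 2 (limma adjusted p = 0.0991) and without MCTP 1 (limma adjusted p = 0.0679), among others. Atp5a1, which forms the catalytic head with Atp5b, and Atp5c1, the gamma subunit of the central stalk, were called in no comparison. In the direct comparison 0 subunits of complex V were called higher and 0 lower by limma, beside 20.6% and 22.6% of all genes, with 0 and 2 at an unadjusted p under 0.05.

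The 3 members outside the complexes were Atp5s and Atp5sl, named for a coupling factor of the synthase, and Cox4nb. Cox4nb is a gene next to Cox4i1 that belongs to a membrane complex of the endoplasmic reticulum, and the rule caught it by its symbol. Its values were 10.23, 10.30 and 10.27 in the control libraries, 10.68, 10.64 and 10.52 with shNsd2 and 10.36, 10.18 and 10.44 with MCTP. The shNsd2 libraries lay above all others, and MCTP overlapped control. It rose by 0.35 with shNsd2 (SE 0.05, limma adjusted p = 0.000481), with each library left out as well, and with MCTP the difference was 0.06 (SE 0.07, limma adjusted p = 0.538). Its direct difference was 0.29 (SE 0.08, limma adjusted p = 0.0220), lost without shNsd2 1 (limma adjusted p = 0.0840), shNsd2 2 or MCTP 1. Cox4nb and Cox4i1 lie on opposite strands and share 154 exonic bases, so reads there could belong to either gene. Over the 76 members that are subunits of the complexes, 18 of 75 tested were higher and 2 lower with shNsd2, and 15 were higher and 1 lower with MCTP. The shares were 24% and 2.67%, beside 23.1% and 24.8% of all genes, and 19.7% and 1.32%, beside 18% and 17.2%. For 2 libraries against 2 these were 35 and 4, and 52 and 4.

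**Figure D3:**
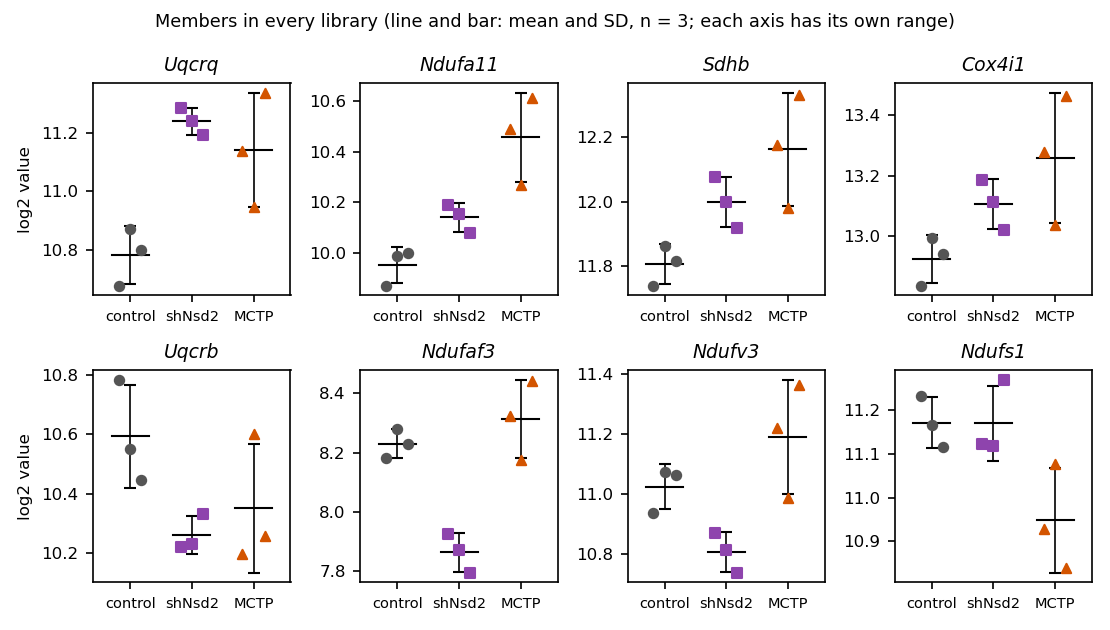
Log2 value in each of the 9 libraries of members the text describes, drawn as points by group, each axis with its own range. Lines and bars are the mean and SD of 3 libraries, and Ndufv3 and Ndufaf3 lie lowest in the shNsd2 libraries while Ndufa11 lies highest in the MCTP libraries.

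The subunits encoded in the mitochondrial genome, which the nuclear subunits join, were compared as a list of 13 genes. With shNsd2 3 were higher (23.1%, equal to the 23.1% of all genes) and 0 lower, beside 24.8%, and the median was 0.13. With MCTP 0 were higher and 0 lower by limma, 0 and 0 also at an unadjusted p under 0.05, beside 18% and 17.2% of all genes, with a median of -0.01. Without control 1, shNsd2 3 and MCTP 2 the counts were 9 higher and 0 lower with shNsd2, and 0 higher and 7 lower with MCTP. In the direct comparison they were 10 higher and 0 lower, beside 31% and 31.5% of all genes, where 3 against 3 libraries had given 0 and 0. The GC content of these 13 transcripts was 31.9% to 41.1%, against a median of 50.4% for all genes tested with shNsd2. The libraries left out deviated along GC content, and its part in these counts was not tested. The genes called with shNsd2 were mt-Atp6, mt-Nd4l and mt-Cytb. Values of mt-Atp6, a proton channel subunit of the synthase, were 15.37, 15.19 and 15.11 in the control libraries, 15.45, 15.39 and 15.62 with shNsd2 and 14.97, 15.61 and 14.83 with MCTP. The control and shNsd2 groups did not overlap, and MCTP 2 stood high among the MCTP libraries. It rose by 0.26 with shNsd2 (SE 0.08, limma adjusted p = 0.0204), lost without control 3 (limma adjusted p = 0.0701), control 2 or shNsd2 3. The calls of mt-Nd4l at 0.13 and mt-Cytb at 0.17 were likewise lost without control 3 (limma adjusted p = 0.0899 and 0.162). Most of these RNAs carry short poly(A) tails, and the libraries were made from RNA selected for poly(A).

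A further 5 subunits and carriers lie outside the naming rule. Of these 2 were higher with shNsd2, and 0 were called with MCTP by limma, with 1 higher at an unadjusted p under 0.05. The shares called higher were 40% and 0%, beside 23.1% and 18% of all genes, and for 2 libraries against 2 the counts were 4 higher and 0 lower with shNsd2 and 3 and 0 with MCTP. Cyc1, the cytochrome c1 of complex III, had values of 11.95, 12.07 and 12.05 in the control libraries, 12.35, 12.26 and 12.21 with shNsd2 and 12.19, 11.97 and 12.34 with MCTP. The shNsd2 libraries lay above control, and MCTP overlapped both. It rose by 0.25 with shNsd2 (SE 0.05, limma adjusted p = 0.00252), with each library left out as well. Atpif1, the inhibitor of the synthase, rose by 0.11, lost without shNsd2 1 (limma adjusted p = 0.142). Of 27 further assembly factors in the table, from a list of 43, 11 were higher and 6 lower with shNsd2 (40.7% and 22.2%, beside 23.1% and 24.8% of all genes), and 6 were higher and 2 lower with MCTP (22.2% and 7.41%, beside 18% and 17.2%), with 11 and 6, and 11 and 4, for 2 libraries against 2. Surf1, a factor for complex IV, rose by 0.33 with shNsd2 (SE 0.05, limma adjusted p = 0.000579) and by 0.36 with MCTP (SE 0.08, limma adjusted p = 0.0123), the latter lost without MCTP 1 (limma adjusted p = 0.0573). Cmc1 fell by 0.37 with shNsd2 (SE 0.05, limma adjusted p = 0.000324) and by 0.23 with MCTP (SE 0.07, limma adjusted p = 0.0297), the latter lost without MCTP 1 (limma adjusted p = 0.120). Nubpl, which serves the iron-sulfur clusters of complex I, fell by 0.35 with shNsd2 (limma adjusted p = 0.000324). Lrpprc, which stabilizes mitochondrial messenger RNA, rose by 0.25 with shNsd2 and fell by 0.20 with MCTP, with a direct difference of 0.45 (SE 0.06, limma adjusted p = 0.00129) and the MCTP call lost without MCTP 1 (limma adjusted p = 0.118).

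Other mitochondrial lists gave mixed directions. Of 13 genes of ubiquinone synthesis, 1 was higher with shNsd2 and 1 with MCTP, Coq10a in each case, at 0.18 and 0.20, with calls lost without shNsd2 2 (limma adjusted p = 0.0547) and without MCTP 1 (limma adjusted p = 0.105). That is 7.69% in each, beside 23.1% and 18% of all genes, and for 2 libraries against 2 the counts were 5 higher and 3 lower, and 4 and 0. Of 23 genes of the TCA cycle and pyruvate dehydrogenase in the table, from a list of 26, 5 were higher and 5 lower with shNsd2 (21.7% each, beside 23.1% and 24.8% of all genes), and 2 were higher and 6 lower with MCTP (8.70% and 26.1%, beside 18% and 17.2%), with 6 and 6, and 8 and 10, for 2 libraries against 2. Pdk1, a kinase that inhibits pyruvate dehydrogenase, had values of 12.56, 12.52 and 12.50 in the control libraries, 12.05, 12.05 and 12.10 with shNsd2 and 12.18, 12.14 and 12.05 with MCTP. Control libraries were highest, and the other groups overlapped each other. Pdk1 fell by 0.46 with shNsd2 (SE 0.03, limma adjusted p = 1.71e-05) and by 0.40 with MCTP (SE 0.05, limma adjusted p = 0.00153). Dld, a subunit of pyruvate dehydrogenase and related enzymes, fell by 0.43 with MCTP (SE 0.12, limma adjusted p = 0.0270), lost without MCTP 1 (limma adjusted p = 0.105) and 3 other libraries. Pdk2, another such kinase, rose by 0.46 with MCTP (SE 0.06, limma adjusted p = 0.00138). Of 14 mitochondrial chaperones and proteases, 7 were higher and 1 lower with shNsd2, and 0 were higher and 3 lower with MCTP (limma, 0 and 4 at an unadjusted p under 0.05). The shares were 50% and 7.14%, beside 23.1% and 24.8% of all genes, and 0% and 21.4%, beside 18% and 17.2%, and the counts for 2 libraries against 2 were 7 and 2, and 3 and 5. The protease gene Lonp1 rose by 0.40 with shNsd2 (SE 0.06, limma adjusted p = 0.000953), and the chaperone gene Hspa9 fell by 0.50 with MCTP (SE 0.07, limma adjusted p = 0.00216).

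Regulators of mitochondrial biogenesis that passed the test were lower with MCTP and in both directions with shNsd2. Of 13 such genes in the table, from a list of 16, 4 were higher and 2 lower with shNsd2, and 0 were higher and 6 lower with MCTP (limma, 2 and 9 at an unadjusted p under 0.05), with medians of 0.05 and -0.22. The shares were 30.8% and 15.4%, beside 23.1% and 24.8% of all genes, and 0% and 46.2%, beside 18% and 17.2%, and the counts for 2 libraries against 2 were 5 and 3, and 2 and 9. In the direct comparison 7 were higher in shNsd2 and 0 lower, 53.8% and 0%, beside 20.6% and 22.6%. Ppargc1a, which encodes PGC-1 alpha, had values of 6.74, 6.65 and 6.66 in the control libraries, 6.27, 6.17 and 6.30 with shNsd2 and 6.33, 6.41 and 6.21 with MCTP. Control libraries were highest, and the other groups overlapped. It fell by 0.44 with shNsd2 (SE 0.05, limma adjusted p = 0.000101) and by 0.37 with MCTP (SE 0.06, limma adjusted p = 0.00381), with each library left out as well. Tfam, the packaging and transcription factor of mitochondrial DNA, had values of 10.43, 10.35 and 10.26 in the control libraries, 10.35, 10.31 and 10.39 with shNsd2 and 9.96, 10.09 and 9.86 with MCTP. MCTP libraries were lowest, and shNsd2 lay within the control range. Tfam fell by 0.38 with MCTP (SE 0.07, limma adjusted p = 0.00817), and its direct difference was 0.38 (SE 0.07, limma adjusted p = 0.00338). Of the GABP subunits, Gabpb1 fell by 0.12 with shNsd2, lost without shNsd2 1 (limma adjusted p = 0.182), and by 0.28 with MCTP (limma adjusted p = 0.0105), and Gabpb2 fell by 0.56 with MCTP (SE 0.10, limma adjusted p = 0.00512). Gabpa and Yy1 were called in the direct comparison alone, at 0.41 (limma adjusted p = 0.0317) and 0.27 (limma adjusted p = 0.0214), calls lost without MCTP 1 for Gabpa (limma adjusted p = 0.125) and without shNsd2 3 for Yy1 (limma adjusted p = 0.0826), among others. Tfb2m fell by 0.23 and Ppargc1b by 0.13 with MCTP, calls lost without control 1 for Tfb2m (limma adjusted p = 0.152) and without MCTP 1 for Ppargc1b (limma adjusted p = 0.108). With shNsd2, Pprc1 rose by 0.36, Polrmt by 0.27 and Esrra by 0.21, each with each library left out as well, and Nrf1 by 0.11, lost without shNsd2 2 (limma adjusted p = 0.135).

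Ribosomal protein genes, which are also short as a class, were set beside the members. Their median log2 level was 10.19 for mitochondrial and 14.14 for cytosolic ones, against 11.16 for the members and 9.79 for all genes tested with shNsd2. Of 76 mitochondrial ribosomal proteins 41 were higher and 3 lower with shNsd2, with a median of 0.14, and 11 were higher and 4 lower with MCTP, with a median of 0.11. Of 95 genes taken by symbol as cytosolic ribosomal proteins, a choice that includes some related names such as Rps19bp1, 94 were tested. Of these 22 were higher and 0 lower with shNsd2, and 4 were higher and 2 lower with MCTP, with medians of 0.06 and 0.07. The share called higher with shNsd2 was 53.9% for mitochondrial ribosomal proteins, 23.4% for cytosolic ones and 25.6% for the members, beside 23.1% of all genes. With MCTP the shares were 14.5%, 4.26% and 18.1%, beside 18%. For 2 libraries against 2 the shares were 60.5%, 40.4% and 47.6% with shNsd2, beside 30% of all genes, and 55.3%, 43.6% and 65.1% with MCTP, beside 30.3%. The shares called lower were 3.95%, 0% and 3.66% with shNsd2, beside 24.8% of all genes, and 5.26%, 2.13% and 1.20% with MCTP, beside 17.2%. No test between these lists was made. The counts of these lists rest on the same libraries as those of the members.

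The members share features that the names did not use. The median length of their transcripts was 908 bases, against 2973 for all genes tested with shNsd2, and the median GC content was 50.9% against 50.4%. They lie on 19 chromosomes, with at most 7 members on any 1 of them. Across the 82 members tested, the difference with shNsd2 had a Spearman coefficient of 0.338 with GC content, against 0.254 over all genes with a transcript. With MCTP the coefficient was 0.477 across members and 0.477 across all genes, and in the direct comparison -0.288 and -0.248. With transcript length the coefficients across members were 0.004 for shNsd2, -0.304 for MCTP and 0.346 for the direct comparison, against -0.109, -0.268 and 0.166 over all genes. Genes are not independent, and the part of GC content and length in the differences was not tested. After a correction for transcript length the shNsd2 counts were 18 higher and 6 lower, so that 75.0% of called members were higher in place of 87.5%, and after a correction for GC content they were 27 and 3 (90%). With MCTP they were 17 and 2 (89.5%) after the length correction and 26 and 1 (96.3%) after the GC correction, in place of 93.8%. Of all genes 24.5% were higher and 25% lower with shNsd2 after the length correction and 27.8% and 28.5% after the GC correction, and with MCTP 19.5% and 17.4%, and 23.5% and 23.1%.

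Some members share exonic bases with another gene, and the use of strand in counting was not given in the sources used here. With genes on the other strand the shared bases were 65.6% of the exons of Ndufaf2 (with B230220B15Rik), 39% of Ndufb6 (with Smim27), 30.0% of Ndufa13 (with Tssk6), 19.7% of Uqcrc2 (with Pdzd9), 12.8% of Cox5a (with Gm26631), 9.94% of Cox4i1, 6.41% of Ndufa11 (with Vmac) and 2.64% of Ndufaf3 (with Impdh2), among others. On the same strand they were 19.5% of Ndufb9 (with Gm49356), 12.3% of Atp5o (with a gene listed under the same name), 5.13% of Cox4nb (with Gm27021), 4.48% of Atp5g2, 4.26% of Ndufb8 and 2.58% of Ndufb2. Values of these members may hold reads of the other gene, and the share of such reads was not measured. The GENCODE annotation also lists pseudogenes named for Uqcrh, Atp5k and Atp5l, and reads could be shared with such copies.

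Promoters were searched for the letters of factors known at nuclear subunit genes. RefSeq windows on GRCm38.p6, from 250 bases before the start of the gene to 50 after it, were found for 71 of 83 members. The letters CCGGAAG, the core of a GABP site, were in 16 of 71 windows on either strand (22.5%), against 9.12% of 27025 windows of all genes and 11.9% of 17492 windows of protein-coding genes. The letters GCATGCGC, from the NRF1 motif, were in 11 windows (15.5%), against 2.80% and 3.61%. Either was in 22 windows (31.0%), against 11.4% and 14.8%. A CCAAT box (CCAAT) was in 32 windows (45.1%), against 37.9% and 39%, and TATAAA in 5 (7.04%), against 14.2% and 13.3%. No motif contains another, and GCATGCGC can overlap its own reverse complement. The median GC content of the windows was 58.7% for members, against 52.7% for all genes and 56.3% for protein-coding genes. Its part in these shares was not tested. GABP or NRF1 letters were in 8 of 18 windows of members called higher with shNsd2 and in 14 of 50 of those not called. With MCTP they were in 7 of 12 windows of members called higher and in 15 of 59 of those not called. No test of these counts was made, and a match is a description of letters and not a bound site.

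The stretches below are shown because they lie before members that were called higher in at least 1 comparison with control and hold GABP or NRF1 letters outside every annotated exon of GENCODE M21. Each reads 5′ to 3′ on the strand of its gene, with the matched letters in capitals. Ndufa11 at chr17:56717686-56717761 (plus strand) holds NRF1 letters on both strands, overlapping, and Uqcr11 at chr10:80406831-80406950 (minus strand) holds GABP letters, and both genes were called higher in both comparisons. Ndufa6 at chr15:82354323-82354442 (minus strand) holds NRF1 letters and a CCAAT box, Ndufaf1 at chr2:119662835-119662954 (minus strand) GABP letters, and Ndufaf4 at chr4:24897963-24898082 (plus strand) NRF1 letters on both strands, and these were called higher with shNsd2. Uqcrh at chr4:116075072-116075191 (minus strand), called higher with MCTP, holds a CCAAT box and GABP letters in reverse complement. All coordinates are of GRCm38.p6 in RefSeq.
Ndufa11: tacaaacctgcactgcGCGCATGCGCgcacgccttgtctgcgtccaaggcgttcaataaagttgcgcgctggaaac
Uqcr11: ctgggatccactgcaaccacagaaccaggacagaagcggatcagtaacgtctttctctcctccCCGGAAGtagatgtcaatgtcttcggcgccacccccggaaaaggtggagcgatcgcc
Ndufa6: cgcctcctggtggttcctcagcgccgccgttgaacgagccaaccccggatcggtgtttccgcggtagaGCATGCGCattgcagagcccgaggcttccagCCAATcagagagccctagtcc
Ndufaf1: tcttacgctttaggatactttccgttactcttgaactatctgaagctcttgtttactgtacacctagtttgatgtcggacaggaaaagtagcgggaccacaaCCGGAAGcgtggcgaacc
Ndufaf4: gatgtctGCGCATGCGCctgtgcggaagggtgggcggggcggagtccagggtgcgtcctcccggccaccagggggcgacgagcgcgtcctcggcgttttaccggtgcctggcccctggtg
Uqcrh: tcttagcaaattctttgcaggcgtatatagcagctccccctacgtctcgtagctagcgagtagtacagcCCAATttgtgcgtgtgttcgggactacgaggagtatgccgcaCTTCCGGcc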

How the data were processed

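RNA from 9 libraries of cultured NPK cells was sequenced by the authors. The deposited values are log2 expression values per gene, normalized by the authors, for 12842 genes. The study's methods name a normalization and variance stabilization of counts, and the range of the values fits that log2 scale. The methods give this step for cells sorted from tumors and metastases, and its use for these cultured libraries was assumed. The submitters' processing notes name bcl2fastq 1.8.4, TopHat, Cufflinks, DESeq, DESeq2 and the build mm9, with no role or order. Counts and read depth were not used, so depth per library is unknown and no counting interval is given. Another 3 columns of the table could not be tied to a labelled sample and were not used.

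Groups came from the sample titles, with 3 libraries each of control, shNsd2 and MCTP. Source names differ within the shNsd2 group (Nsd2, Nsd3 and Nsd4). Each comparison was fitted over its own 6 libraries with limma 3.58.1 in R 4.3.3, using empirical Bayes with a mean-variance trend and no block, over all genes above 3.78 (the median over libraries of the lowest 10% of values) in at least 3 libraries. P-values were adjusted by Benjamini and Hochberg over all genes tested, and a gene was called at an adjusted p under 0.05. A difference is the mean log2 value of the first group minus that of the second. The fits were also run on simulated data, and the outcome is not reported here. Single values were also compared by a two-sided exact permutation test. Transcript length, GC content, position and overlap came from GENCODE M21 on GRCm38 (12513 of 12842 genes matched), and promoter windows from RefSeq on GRCm38.p6, the first listed window of each gene.

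The text names Nsd2, the core subunits of each complex, members with paralogous isoforms, in each comparison and complex the largest called rises and falls whose groups do not overlap, the members with the lowest adjusted p, all mtDNA-encoded subunits, carriers and regulators that were called, and some of the largest called changes of the other lists. Some alleles of the cells, marker genes and members under this rule are not reported here. Members with losses of a call, with markers or with exonic overlap were named beyond this rule after their values were seen. The members and lists were chosen with earlier results of these data known. The lists were mtDNA-encoded subunits, subunits and carriers, assembly factors, ubiquinone synthesis, the TCA cycle, regulators, chaperones and proteases, ribosomal proteins and cell type markers. Alternatives were no filter, all 9 libraries in a shared fit, a replicate block, quantile normalization, median centring, no trend, lowess corrections for GC content and transcript length, and leaving out each library. A fit of 2 against 2 libraries, without control 1, shNsd2 3 and MCTP 2, was added after seeing the data.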

Additional observations from a re-analysis of the deposited data

How the results depend on the processing

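The medians over members kept their sign under every alternative, from 0.02 to 0.08 with shNsd2, from 0.07 to 0.19 with MCTP and from -0.13 to -0.02 for shNsd2 minus MCTP. The fall of Nsd2 kept its call in each comparison. No called difference of a named gene changed sign, while of the named members not called 11, 11 and 16 did so in at least 1 alternative, out of 25 with shNsd2, 35 with MCTP and 37 in the direct comparison. Counts of called members moved more, and so did the shares of all genes called, which rose from 23.1% to 30% higher with shNsd2 and from 18% to 30.3% with MCTP for 2 against 2 libraries. The cause was not tested.

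With shNsd2 the count of higher members, 21 in the fit reported, was 4 with all 9 libraries in a shared fit and 39 for 2 against 2 libraries, and the count of lower members, 3, was 6 with the length correction and 5 for 2 against 2. With MCTP the count of higher members, 15, was 25 in the shared fit, 24 with median centring, 26 with the GC correction and 54 for 2 against 2. The count of lower members there, 1, was 0 with quantile normalization or median centring, 2 with the length correction and 4 for 2 against 2. Of all genes with MCTP, 23% were higher and 12.7% lower with median centring, and 16.4% were lower with quantile normalization. In the direct comparison the count of lower members, 8, was 14 in the shared fit, 16 with the GC correction, 13 with the length correction and 37 for 2 against 2. Of all genes 25.5%, 28.7%, 24.1% and 31.5% were lower in these fits, in this order, beside 22.6% in the fit reported. The count of higher members, 2, was 4 with the GC correction and 7 for 2 against 2, where 29.1% and 31% of all genes were higher, beside 20.6%.

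Leaving out 1 library at a time gave 8 to 29 higher and 3 to 5 lower members with shNsd2, 2 to 54 and 0 to 4 with MCTP, and 0 to 7 and 1 to 40 in the direct comparison. The lowest counts with shNsd2 came without shNsd2 1, and the highest with MCTP without MCTP 2, where 29.8% of all genes were higher and 30.6% lower. The 29 higher members with shNsd2 came without shNsd2 3, where 22.1% of all genes were higher.

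Replicate numbers did not pair the libraries. The correlations of deviations between libraries of the same number were -0.49, 0.25 and -0.51 for shNsd2 and control, -0.60, -0.57 and 0.61 for MCTP and control, and 0.35, -0.63 and -0.81 for shNsd2 and MCTP. With the replicate block the counts were 9 higher and 3 lower with shNsd2, 11 and 0 with MCTP, and 1 and 6 in the direct comparison. Of all genes 17.2% were higher and 19.7% lower with shNsd2 in that fit, 13.9% and 14% with MCTP, and 14% and 17% in the direct comparison. Each replicate number stands for 1 library in each group, so the block could not change a difference of means. By construction the fall of Nsd2 stayed at -0.83, -0.30 and -0.53, and the medians at 0.05, 0.13 and -0.07.

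With 3 libraries in each group, differences of the size seen for most members, near 0.1 on the log2 scale, often lay within the spread of the libraries. Read depth is unknown, so the precision of single values could not be set. The MCTP libraries carry different numbers in their labels, and the shNsd2 libraries different source names. Differences between these numbers or names cannot be told apart from spread between libraries. Most calls of members rest on which libraries are used: with each library left out in turn, 13 of 21 higher calls with shNsd2 were lost and 0 of 3 lower ones, 13 of 15 and 1 of 1 with MCTP, and 2 of 2 and 7 of 8 in the direct comparison.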
